A study of Mus musculus with 6 samples.

Results

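The proteasome is the barrel-shaped protease that degrades most ubiquitin-tagged proteins of a cell. Its genes were taken from a count table of RNA from mouse glomeruli, the filtering units of the kidney, by symbol. All symbols that begin with Psma to Psmg followed by a digit were taken, without the 3 inducible immunoproteasome subunits Psmb8, Psmb9 and Psmb10 and without 4 pseudogenes. This gave 47 genes of the 55401 in the table, of which 45 passed the filter on low counts and were tested among 19717 genes. The 2 that did not pass are forms of other organs: Psma8, the testis form of an alpha subunit, had 35, 5 and 41 counts in Control and 9, 4 and 0 in DKD replicates 1 to 3, and Psmb11, the thymus form of a beta subunit, had 3 counts in DKD replicate 1 and 0 in the other 5 libraries. A count of 0 allows up to 3 counts in a library, for counting error only.

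The study set glomeruli of Control mice against glomeruli of mice with DKD, which the title of the series spells out as diabetic kidney disease, with 3 libraries of polyadenylated RNA in each group. The labels give the group only, under the tag genotype. The sources used here do not give the strain, age and sex of the mice, the way the disease was induced, its duration, any treatment or any pooling of animals. The samples are numbered 1 to 3 in each group without a statement that they are separate animals. The p-values therefore set the difference between the groups only against the spread between these libraries, which may be technical.

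The core particle of the proteasome is a stack of rings, with outer rings of alpha subunits that gate the entrance and inner rings of beta subunits, 3 of which (Psmb5, Psmb6 and Psmb7) cut proteins. A regulatory particle sits on its end. The base of that particle holds a ring of ATPases that unfold substrates, and its lid removes ubiquitin. Other genes of the set encode chaperones that assemble these particles, alternative caps (Psme1 to Psme4) and an inhibitor (Psmf1). When proteasome capacity falls short, the transcription factor NFE2L1 is known to raise the transcription of subunit genes together through antioxidant response elements. Podocytes, the epithelial cells of the glomerular filter, hardly divide and depend on protein clearance by the proteasome and by autophagy. Of the genes taken by symbol, 2 are not subunits: Psmc3ip encodes a DNA recombination protein that binds an ATPase of the base, and Psme2b is an intronless copy of Psme2 that holds 76.5% of its 31-base words in common with it. The label "constitutive" also does not describe all of the rest, since Psme1 and Psme2 are inducible by interferon.

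Promoter sequence is shown for the 3 genes with the smallest p-values in the comparison described further on, namely Psmb5, Psme1 and Psmd9. Each line gives the 250 bases before the RefSeq transcription start on the gene's own strand, 5′ to 3′, in the mouse build GRCm38.p6, which is older than the build of the counts. Psmb5 lies on the minus strand at chr14:54617996-54618245, Psme1 on the plus strand at chr14:55578244-55578493 and Psmd9 on the plus strand at chr5:123227940-123228189. Capitals mark matches to the core of the antioxidant response element, TGANNNNGC, on either strand. The CCAAT box (CCAAT) and the interferon-gamma activated site (TTCNNNGAA) were searched in the same way and matched none of these 3 windows.
Psmb5: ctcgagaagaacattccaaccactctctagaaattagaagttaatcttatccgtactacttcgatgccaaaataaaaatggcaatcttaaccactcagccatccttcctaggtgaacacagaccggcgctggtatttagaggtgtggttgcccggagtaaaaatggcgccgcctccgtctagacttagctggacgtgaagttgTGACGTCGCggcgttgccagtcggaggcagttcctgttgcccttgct
Psme1: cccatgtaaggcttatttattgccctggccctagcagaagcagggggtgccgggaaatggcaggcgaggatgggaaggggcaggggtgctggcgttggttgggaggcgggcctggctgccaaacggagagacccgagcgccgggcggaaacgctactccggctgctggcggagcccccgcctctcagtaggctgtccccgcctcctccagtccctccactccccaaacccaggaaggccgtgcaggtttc
Psmd9: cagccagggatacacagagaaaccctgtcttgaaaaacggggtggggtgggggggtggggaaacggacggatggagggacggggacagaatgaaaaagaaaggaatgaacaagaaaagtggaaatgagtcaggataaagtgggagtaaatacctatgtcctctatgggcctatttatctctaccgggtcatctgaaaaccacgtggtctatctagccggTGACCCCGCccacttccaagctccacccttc

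Psmb5 and Psmd9, whose estimated differences have opposite signs, each held 1 match to the element, tgacgtcgc ending 38 bases and tgaccccgc ending 22 bases before the start. RefSeq promoter windows were found for 38 of the 45 genes tested, which gave 41 windows, and 7 genes (Psmb1, Psmb2, Psmb7, Psmc3, Psmd3, Psmd7 and Psmg2) had no entry. The element was matched in 16 of the 41 windows (39%), against 35.2% of all 32851 windows in the table. CCAAT was matched in 13 (31.7%, against 33.8%), and TTCNNNGAA in 1, that of Psmg1 (2.44%, against 7.02%). These are matches of letters and do not show that a factor binds there.

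No proteasome gene passed the adjusted threshold. By edgeR's quasi-likelihood test with Benjamini-Hochberg adjustment over all genes, 0 of 45 had an adjusted p under 0.05, where 1.16% of all genes tested did. The unadjusted p was under 0.05 for 7 (15.6%), against 22.6% of all genes. Of these, 6 were higher in DKD (13.3%, against 11.8%), namely Psma7, Psmb5, Psmb6, Psmd11, Psme1 and Psme2b, and Psmd9 was lower (2.22%, against 10.9%). Control and DKD libraries were fully apart, with no overlap, for 11 of the 45 genes (24.4%), against 30.7% of all genes. Of the 11, 7 were higher in DKD (15.6%, against 15.5%), the 6 above and Psmd8, and 4 were lower (8.89%, against 15.2%), Psmd2, Psmd3, Psmd5 and Psmd9. By limma-voom and by edgeR with robust dispersion 0 also passed, whereas DESeq2 called 3 (6.67%, against 13.7% of all genes by the same tool), namely Psmb5 and Psme1 as higher (7.46% of all genes were) and Psmd9 as lower (6.2% were). Each of these shares was near or below that of all genes. The count at an unadjusted p depended on single libraries, with 13 of 45 without Control replicate 3 (28.9%, against 24.1% of all genes), 11 of 46 without DKD replicate 2 (23.9%, against 23.3%), 3 of 46 without DKD replicate 1 (6.52%, against 15.6%), 3 of 46 without DKD replicate 3 (6.52%, against 14.8%), 6 of 45 without Control replicate 1 (13.3%, against 17.5%) and 5 of 46 without Control replicate 2 (10.9%, against 16.1%). None of these 6 fits put a proteasome gene past the adjusted threshold by edgeR, where the share of all genes was 1.88%, 1.46%, 0.0195%, 0.0491%, 0.00493% and 0.0639% in the same order. Of the 45, 30 had a log2 fold change above 0, DKD over Control (66.7%, against 50.2% of all genes), and the median was 0.07, against 0.00 over all genes. With the total count of each library in place of TMM factors the median of all genes was −0.13, and 20 of 45 (44.4%) lay above 0 with a median of −0.05. Under that scaling the groups were apart for 19 of 45 (42.2%, against 29.3% of all genes). Of these, 6 were higher (13.3%, against 10.2%) and 13 lower (28.9%, against 19.1%). The unadjusted p by edgeR was under 0.05 for 9 of 45 (20%, against 22.5% of all genes), 2 higher and 7 lower. The balance of higher and lower proteasome genes thus turned with the scaling, under which the median of all genes was lower too.

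**Figure D1:**
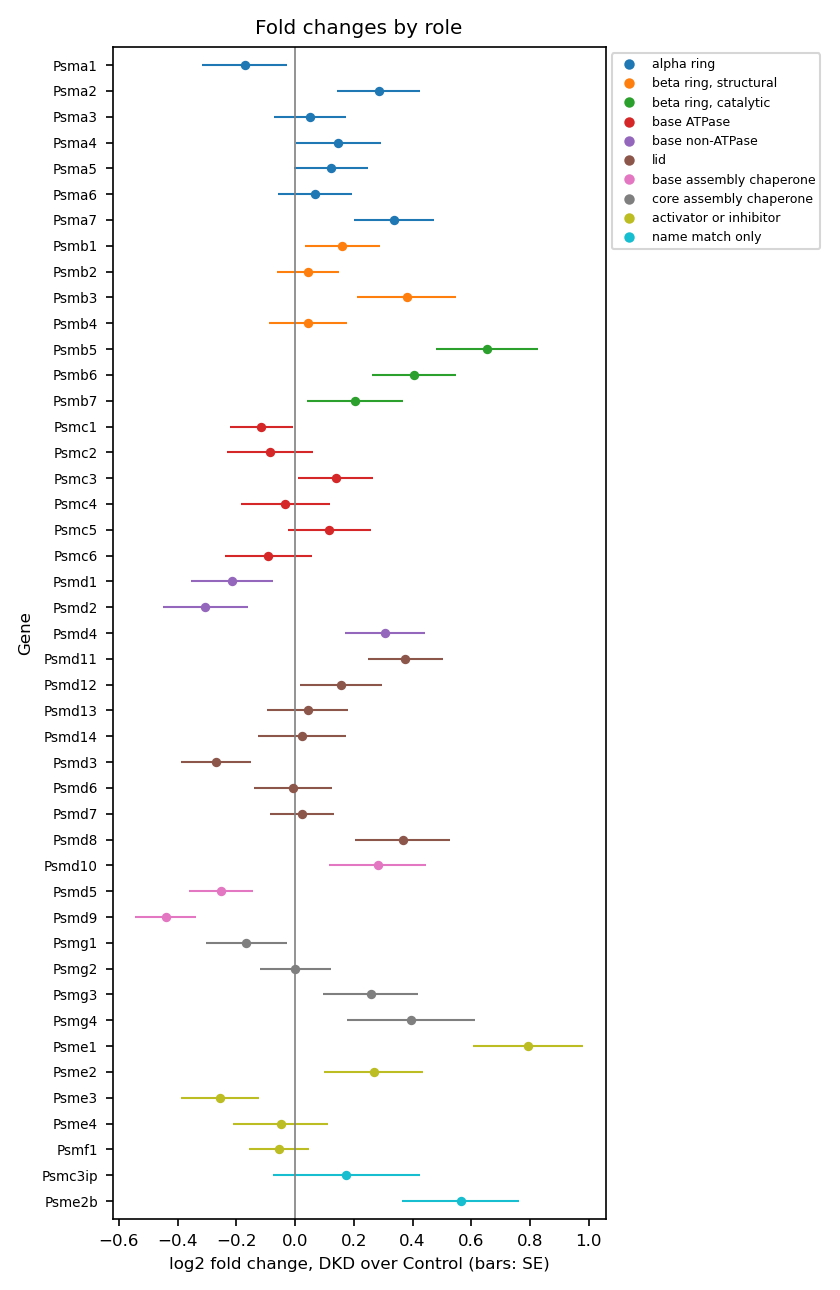
Log2 fold change of each of the 45 genes tested (x axis, DKD over Control, edgeR; points, with bars of 1 SE), in rows by gene and coloured by role. The values run from −0.44 for Psmd9 to 0.79 for Psme1, and the 3 catalytic beta subunits all lie to the right of 0.

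Levels are given in CPM, the count of a gene relative to the total of its library, scaled with TMM factors. Totals ran from 71154026 to 83576494 counts per library, and the lowest count of a core subunit was 3045 (Psmb2), which has a counting error under 2% of its value. Control replicate 3 stood apart from the other Control libraries, with a score of −101 on the leading principal component against −18.05 and −15.02. Markers of the glomerular cells were present in every library, but proximal tubule markers took more of the counts. The 12 podocyte markers held 0.0819% to 0.125% of the counts in Control and 0.0612% to 0.0777% in DKD, with none of them at 0 throughout, and the 12 proximal tubule markers held 2.39% to 4.02% and 1.17% to 2.24%. All 12 tubule markers had a log2 fold change below 0 (median −0.64), 2 of them past the adjusted threshold by edgeR. Of the 12 podocyte markers 10 were below 0 (median −0.54), as were 9 of 10 endothelial markers (median −0.52), with 0 past that threshold in either list. Of 10 mesangial and smooth muscle markers 8 were below 0 (median −0.18), whereas 6 of 7 parietal epithelial markers were above 0 (median 0.31). Of all genes tested 50.2% lay above 0. The part of these markers in the proteasome values was not tested. Fewer cells of a type and less RNA per cell cannot be told apart in such bulk libraries, nor can a change in one cell type be told from a change in all.

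The part of the RNA held by all of these genes overlapped between the groups. Summed over the 47 genes it took 0.347%, 0.360% and 0.339% of the counts in Control replicates 1 to 3 and 0.338%, 0.329% and 0.351% in DKD replicates 1 to 3. These ranges overlap, with means of 0.349% ± 0.0105 (SD, n = 3) in Control and 0.339% ± 0.0106 in DKD. The denominator matters for the sign, because mitochondrially encoded genes held 10.6% to 12.2% of the Control counts and 15.3% to 18.7% of the DKD counts. Without those genes in the total, the share was 0.394%, 0.403% and 0.386% in Control and 0.416%, 0.389% and 0.430% in DKD. In TMM-scaled CPM the sum was 3083, 3221 and 3745 in Control and 3708, 3247 and 3702 in DKD. Control replicate 3 and DKD replicates 1 and 3 were the high libraries, and Control replicates 1 and 2 and DKD replicate 2 were the low ones. Gene by gene, Control replicate 3 was the highest of the 6 libraries for 17 of the 45, DKD replicate 3 for another 17 and DKD replicate 1 for 10, while Control replicate 1 was the lowest for 21.

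**Figure D2:**
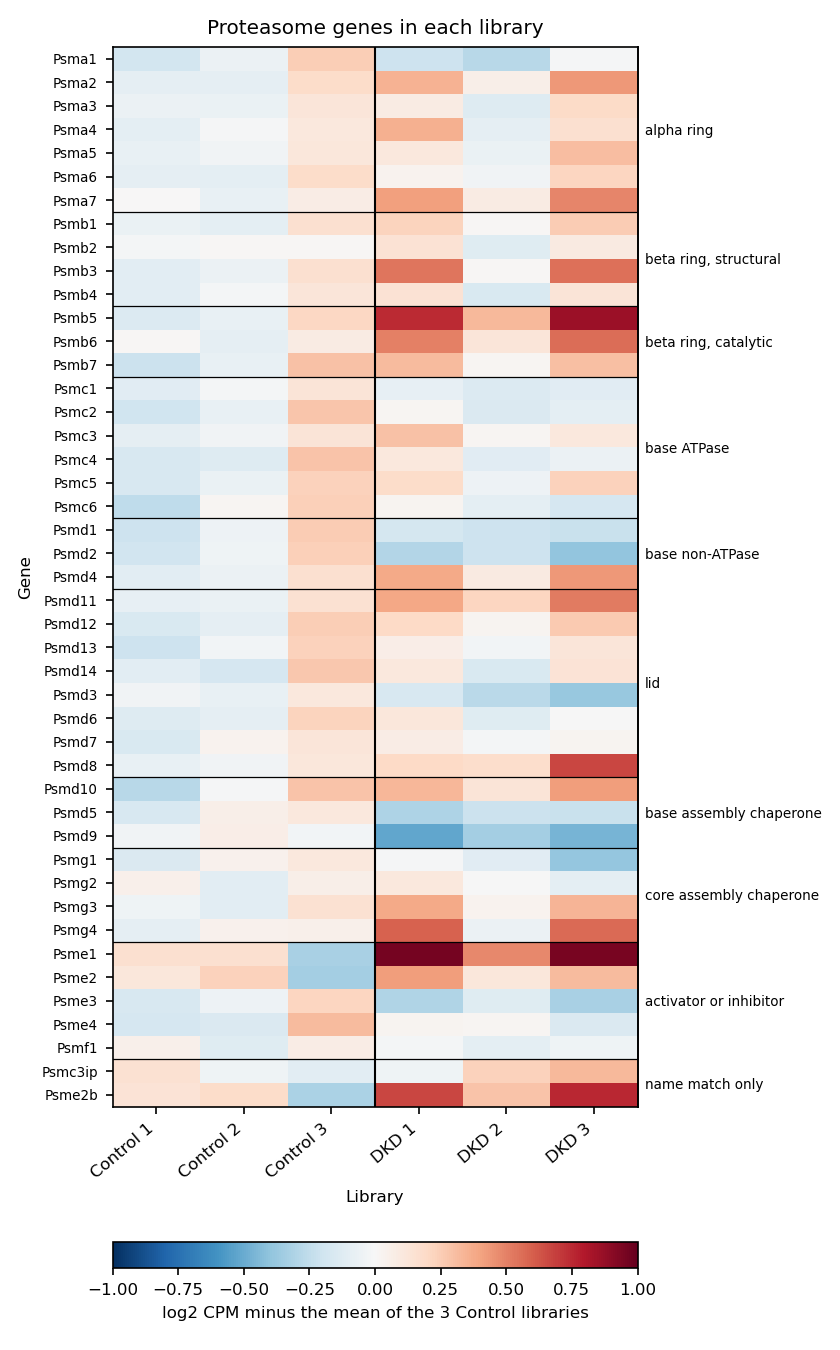
Log2 CPM of the 45 genes tested (rows, grouped by role) in each of the 6 libraries (columns), minus the mean of the 3 Control libraries, with red for higher and blue for lower. DKD replicate 2 is the palest of the DKD columns, and Psmb5 and Psme1 are the darkest red rows of DKD replicates 1 and 3.

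The catalytic subunits Psmb5 and Psmb6 had the largest estimates of the 14 core subunits. Psmb5 (ENSMUSG00000022193) carries the chymotrypsin-like activity, the site that drugs such as bortezomib block. It was measured at 86.97, 91.1 and 111 CPM in Control and 160.3, 120.1 and 174 CPM in DKD replicates 1 to 3. Each DKD library was higher than any Control library, with DKD replicate 2 the nearest to them, and the means were 96.3 ± 12.7 CPM in Control and 151 ± 27.9 CPM in DKD (SD, n = 3). The estimated log2 fold change of Psmb5 was 0.65 ± 0.17 (± SE, as for all log2 fold changes here), and its adjusted p was 0.0957 by edgeR and 0.0160 by DESeq2.

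Psmb6 (ENSMUSG00000018286), the caspase-like subunit, was measured at 84.8, 79.2 and 89.02 CPM in Control and 119.8, 91.5 and 124 CPM in DKD. Its groups were also apart, by the small gap between Control replicate 3 and DKD replicate 2, with means of 84.3 ± 4.91 CPM in Control and 112 ± 17.6 CPM in DKD (SD, n = 3). The log2 fold change was 0.40 ± 0.14, with an edgeR adjusted p of 0.159. Psmb7 (ENSMUSG00000026750), the trypsin-like subunit, was measured at 70.01, 77.1 and 99.5 CPM in Control and 101, 82.5 and 100.3 CPM in DKD in the same order. Control replicate 3 lay among the DKD libraries, and the log2 fold change was 0.20 ± 0.16 with an edgeR adjusted p of 0.505. Reads of Psmb5 can be shared with the processed pseudogene Gm3375, whose transcript holds 59.8% of the 31-base words of Psmb5. Gm3375 itself was given 1.92% to 2.34% as many counts as Psmb5, in every library. Of the exonic bases of Psmb7, 11.8% lie opposite Nek6 on the other strand. Nek6, chosen here for the overlap, was counted at 21.7% to 41.1% of the Psmb7 count in Control and 46.9% to 65.2% in DKD, and the sources used here do not say whether counting used the strand.

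**Figure D3:**
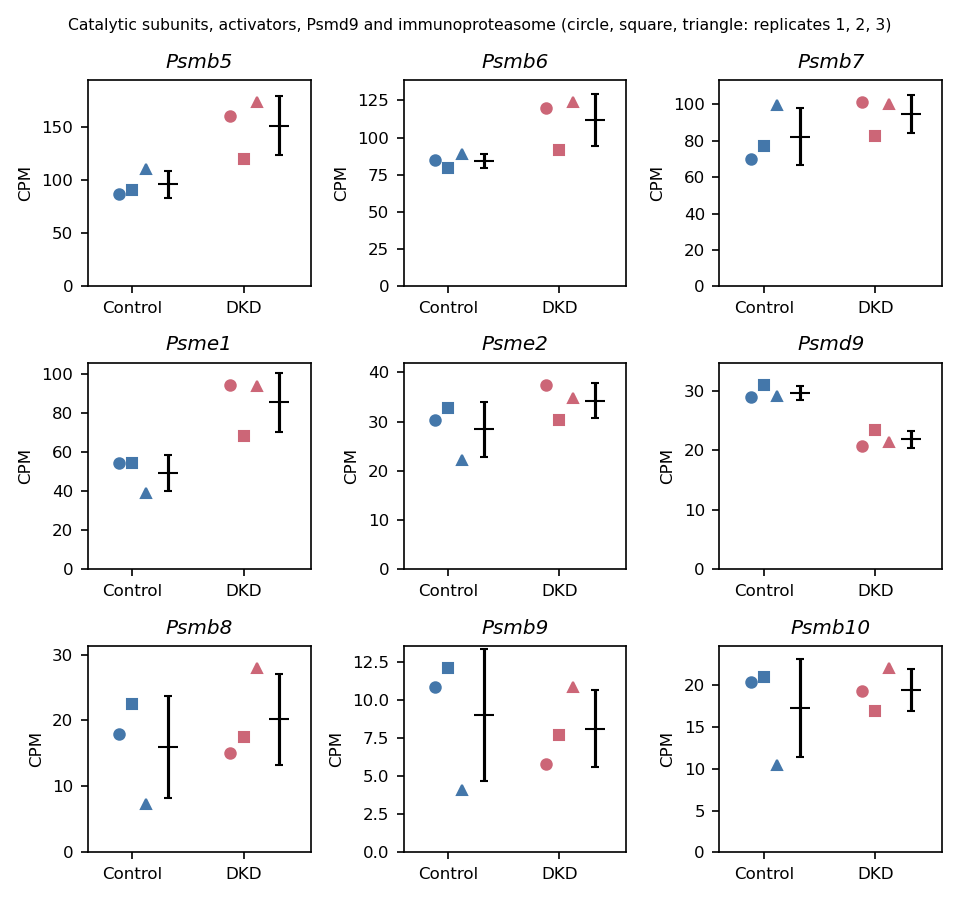
CPM (y axis, from 0) of the 3 catalytic subunits, Psme1, Psme2 and Psmd9, and the 3 immunoproteasome subunits in Control (blue) and DKD (red), with 1 symbol per library and the mean ± SD of 3 libraries beside each group. The groups are apart for Psmb5, Psmb6, Psme1 and Psmd9, and Control replicate 3 (blue triangle) is the lowest library for Psmb8, Psmb9 and Psmb10.

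The other 4 beta subunits form the ring around the active sites, and none of them passed the edgeR test at an adjusted or an unadjusted p under 0.05. Psmb3 was measured at 52.9, 54.7 and 63.5 CPM in Control and 82.2, 57.2 and 83.3 CPM in DKD. DKD replicate 2 lay within the Control range while the other DKD libraries lay above it, and the log2 fold change was 0.38 ± 0.17 with an edgeR adjusted p of 0.236. Psmb1 had a log2 fold change of 0.16 ± 0.13 (108, 106 and 127 CPM in Control and 132, 114 and 135 CPM in DKD), with overlapping groups. Psmb4 had 0.04 ± 0.13, and its sign turned with the scaling and with the library left out. Psmb2 was the steadiest beta subunit across Control, at 45.2, 46.2 and 46.1 CPM, against 50.7, 42.2 and 48.9 CPM in DKD.

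Of the 7 alpha subunits 6 had a log2 fold change above 0, and 1 of them had an unadjusted p under 0.05. This was Psma7 (ENSMUSG00000027566), measured at 82.6, 78.3 and 86.6 CPM in Control and 109.7, 87.2 and 116 CPM in DKD. Its groups were apart by less than 1 CPM, and the log2 fold change was 0.34 ± 0.14 with an edgeR adjusted p of 0.199. Psma2 was measured at 64.6, 64.7 and 78.4 CPM in Control and 87.8, 71.8 and 93.2 CPM in DKD. Control replicate 3 lay above DKD replicate 2, and the log2 fold change was 0.28 ± 0.14 with an edgeR adjusted p of 0.283. Psma1 was the single alpha subunit below 0, at 79.7, 86.98 and 107 CPM in Control and 78.5, 74.8 and 89.8 CPM in DKD. Control replicates 1 and 2 lay within the DKD range (−0.17 ± 0.15). Psma3, Psma4, Psma5 and Psma6 lay between 0.05 and 0.15 with SEs of 0.12 to 0.15. Counts of Psma3 are uncertain, since the processed pseudogene Gm13835, which holds 16.2% of its words, was given 46.4% to 60.3% as many counts as Psma3 itself.

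Counted together, 13 of the 14 core subunits had a log2 fold change above 0 (92.9%, against 50.2% of all genes). Their median was 0.15, against 0.00 over all genes. With library totals 8 of 14 did (median 0.03, against −0.13 over all genes). With a trend on transcript length removed 7 of 14 did (median 0.00, against −0.03). The SE of single core subunits was 0.11 to 0.17, of the same order as the core median of 0.15. Of the 17 regulatory particle subunits 9 lay above 0 with a median of 0.02. With library totals 5 did (median −0.10, against −0.13 over all genes), as did 5 with the length trend removed (median −0.12, against −0.03). Leaving out Control replicate 3, 13 of 17 regulatory subunits lay above 0 (median 0.12), and leaving out Control replicate 1, 6 of 17 did (median −0.06). The ratio of summed core to summed regulatory CPM was 0.741, 0.713 and 0.696 in Control and 0.841, 0.746 and 0.875 in DKD replicates 1 to 3. The ranges did not overlap, with DKD replicate 2 just above Control replicate 1. This ratio takes sums over chosen genes and was not tested. The core sum includes Psmb5, the core subunit with the largest estimate, and a gap this small can rest on that gene alone. The core transcripts are also shorter than the regulatory ones, as described below.

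None of the 6 ATPases of the base, Psmc1 to Psmc6, came near the threshold. They lay between −0.11 for Psmc1 and 0.14 for Psmc3, all with overlapping groups, and their smallest adjusted p by edgeR was 0.564, with 0 of 6 at an unadjusted p under 0.05. Psmc3 was measured at 126, 132 and 147 CPM in Control and 165, 136 and 145 CPM in DKD (0.14 ± 0.13), and Psmc1 at 88.1, 93.6 and 104 CPM in Control and 89.9, 86.3 and 87.9 CPM in DKD (−0.11 ± 0.11). Control replicate 3 was the highest Control library for all 6 ATPases.

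The 3 other subunits of the base went both ways. Psmd2, which with Psmd1 forms the scaffold of the base, was measured at 153, 170.3 and 207 CPM in Control and 143, 152 and 133 CPM in DKD. The groups were apart by the gap of about 1 CPM between DKD replicate 2 and Control replicate 1. Psmd2 had a log2 fold change of −0.31 ± 0.15 (edgeR adjusted p 0.263). Psmd1 was measured at 94.7, 106 and 131 CPM in Control and 96.98, 94.7 and 93.8 CPM in DKD, with overlapping groups (−0.21 ± 0.14). Psmd4, a ubiquitin receptor that captures tagged substrates, had the opposite sign, at 79.3, 81.96 and 95.3 CPM in Control and 111, 90.96 and 115 CPM in DKD. DKD replicate 2 lay inside the Control range, and the log2 fold change was 0.30 ± 0.14 with an edgeR adjusted p of 0.240.

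In the lid the groups were apart for 3 of 8 subunits (37.5%, near the 30.7% of all genes), Psmd8 and Psmd11 higher and Psmd3 lower in DKD. Psmd11 (ENSMUSG00000017428), whose abundance is known to limit assembly of the complete proteasome in stem cells, was measured at 66.4, 66.96 and 78.1 CPM in Control and 91.8, 81.6 and 101 CPM in DKD. The log2 fold change was 0.38 ± 0.13 with an edgeR adjusted p of 0.146. Of these 8 lid subunits, all taken by symbol, only Psmd11 had an unadjusted p under 0.05. Sem1, a lid subunit outside the name pattern, is described with the partners further on. Psmd8 was measured at 106, 109 and 121 CPM in Control and 129, 127 and 178 CPM in DKD. DKD replicate 3 was far above the other DKD libraries, and the log2 fold change of 0.37 ± 0.16 (edgeR adjusted p 0.236) was 0.19 without that library. Psmd3 had the lowest log2 fold change of the lid and was measured at 172, 168 and 190.2 CPM in Control and 158, 147 and 136 CPM in DKD. The highest DKD library, replicate 1, was below the lowest Control library, replicate 2, and the log2 fold change was −0.27 ± 0.12 (edgeR adjusted p 0.237). Psmd14, the deubiquitinase that removes ubiquitin chains from substrates, was measured at 44.2, 42.3 and 57.3 CPM in Control and 51.2, 42.8 and 52.2 CPM in DKD, with overlapping groups (0.02 ± 0.15). The remaining lid subunits, Psmd6, Psmd7, Psmd12 and Psmd13, lay between −0.01 and 0.16.

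The chaperones that assemble the base included the lowest estimate of the whole set. Psmd9 (ENSMUSG00000029440), which holds pairs of ATPases before they join the base, was measured at 28.9, 30.99 and 29.1 CPM in Control and 20.7, 23.4 and 21.5 CPM in DKD. The gap between the groups was wider than the range of either group, and the means were 29.7 ± 1.14 CPM in Control and 21.9 ± 1.39 CPM in DKD (SD, n = 3). Psmd9 had a log2 fold change of −0.44 ± 0.10, and its adjusted p was 0.0776 by edgeR and 0.00639 by DESeq2. The gene model Gm26745, a long noncoding RNA on the opposite strand, covers 25.5% of the exonic bases of Psmd9 and was not analysed here. Psmd5 was measured at 50.3, 58.4 and 60.5 CPM in Control and 45.5, 48.6 and 48.1 CPM in DKD, again with groups apart, and its log2 fold change was −0.25 ± 0.11 (edgeR adjusted p 0.227). Psmd10, the third of these chaperones and also known as gankyrin, had the opposite sign at 0.28 ± 0.17 (17.1, 20.5 and 25.3 CPM in Control and 26.03, 22.7 and 27.7 CPM in DKD), with Control replicate 3 inside the DKD range.

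The chaperones of the core, Psmg1 to Psmg4, were low transcripts per kilobase, and their groups overlapped for each of the 4. Psmg4 was measured at 6.30, 6.91 and 6.94 CPM in Control and 10.1, 6.43 and 9.95 CPM in DKD. DKD replicates 1 and 3 lay above Control and DKD replicate 2 within it, and the log2 fold change was 0.39 ± 0.22 (edgeR adjusted p 0.331). Psmg3 had 0.26 ± 0.16, Psmg1 −0.17 ± 0.14 and Psmg2 0.00 ± 0.12.

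Among the caps, Psme1 had the largest estimate of all 45 genes and its partner Psme2 had a smaller one. Psme1 and Psme2 encode the alternating subunits of the PA28 cap, which opens the core without ATP and is known for its part in making antigenic peptides. Psme1 (ENSMUSG00000022216) was measured at 54.6, 54.5 and 38.9 CPM in Control and 94.3, 68.04 and 94.00 CPM in DKD. Even the lowest DKD library, replicate 2, exceeded the highest Control library, and the means were 49.3 ± 9.05 CPM in Control and 85.4 ± 15.1 CPM in DKD (SD, n = 3). The log2 fold change of Psme1 was 0.79 ± 0.19, and its adjusted p was 0.0778 by edgeR and 0.00382 by DESeq2. Without Control replicate 3, the lowest library, it was 0.65 ± 0.17 with an edgeR adjusted p of 0.0867. Psme2 (ENSMUSG00000079197) was measured at 30.3, 32.8 and 22.1 CPM in Control and 37.4, 30.3 and 34.9 CPM in DKD. Its groups overlapped, and the log2 fold change of 0.27 ± 0.17 (edgeR adjusted p 0.392) was 0.12 without Control replicate 3. Per kilobase of transcript, the ratio of Psme1 to Psme2 was 1.42, 1.31 and 1.39 in Control and 1.99, 1.77 and 2.13 in DKD, so the groups were apart in this ratio, which was not tested.

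The intronless copy Psme2b was counted at 31.9% to 33.5% of Psme2 in Control and at 37.1% to 44.5% in DKD. Its log2 fold change was 0.56 ± 0.20 (10.1, 10.5 and 7.40 CPM in Control and 14.6, 11.3 and 15.5 CPM in DKD). Reads of the copy and of Psme2 cannot be separated with confidence, so the Psme2 values are uncertain to that extent. Psme3, a cap found in the nucleus, was measured at 74.5, 80.3 and 96.8 CPM in Control and 67.5, 76.5 and 66.5 CPM in DKD, with overlapping groups (−0.26 ± 0.13, edgeR adjusted p 0.300). Psme4, a single-chain cap linked to histone degradation, had −0.05 ± 0.16, and the inhibitor Psmf1 had −0.06 ± 0.10 with all libraries between 31.3 and 35.8 CPM. Psmc3ip was low throughout, at 2.54, 2.21 and 2.11 CPM in Control and 2.21, 2.67 and 2.86 CPM in DKD (0.17 ± 0.25).

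The inducible subunits Psmb8, Psmb9 and Psmb10 replace Psmb5, Psmb6 and Psmb7 in the immunoproteasome, and 0 of the 3 had an adjusted or an unadjusted p under 0.05 by edgeR. Psmb8, the counterpart of Psmb5, was measured at 17.99, 22.4 and 7.37 CPM in Control and 15.1, 17.5 and 27.9 CPM in DKD (0.34 ± 0.41, edgeR adjusted p 0.668). Psmb9 was measured at 10.9, 12.1 and 4.10 CPM in Control and 5.83, 7.74 and 10.9 CPM in DKD (−0.15 ± 0.42) and Psmb10 at 20.4, 20.98 and 10.5 CPM in Control and 19.3, 16.96 and 22.1 CPM in DKD (0.17 ± 0.27). All 3 were lowest in Control replicate 3, as were Psme1, Psme2 and Psme2b, whereas Control replicate 3 was the highest Control library for 13 of the 14 core subunits. The 14 leukocyte markers, none of them at 0 throughout and 10 of them with a log2 fold change above 0, were lowest in that library as well, at 0.00928% of the counts, against 0.0204% and 0.0230% in the other Control libraries and 0.0124%, 0.0284% and 0.0255% in DKD replicates 1 to 3. Their part in the Psme1, Psme2 and immunoproteasome values was not tested. Per kilobase of transcript Psmb8 stood at 0.114, 0.136 and 0.0367 of Psmb5 in Control and at 0.0520, 0.0803 and 0.0888 in DKD, so the constitutive subunit was the more abundant one in every library.

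Estimated levels within the core particle were unequal although its subunits are built in at equal numbers. Per kilobase of transcript (the median length of the transcripts with a consensus coding sequence in the annotation), mean Control levels of the 14 core subunits ran from 23.8 CPM for Psma2 to 117 CPM for Psma4. Psmb4 (115), Psmb5 (107) and Psmb6 (106) came next to Psma4, and Psma3 (36.4) and Psma5 (37.8) next to Psma2. The low values depend on the length used, 2911 bases for Psma2 and 1852.5 for Psma3. Before division by length Psma2 had a Control mean of 69.2 CPM, and the lowest core subunit was Psmb2 (45.8 CPM). Sequence shared with pseudogenes also makes the counts of Psma3 and Psma5 uncertain. In DKD the highest were Psmb5 (168) and Psmb6 (139.9), above Psma4 (130.03), and Psma2 (28.9) was still the lowest. The regulatory subunits ran from 31.1 CPM per kilobase for Psmd14 to 82.6 for Psmc3 in Control. The assembly chaperones lay below every subunit of either particle, between 11.4 for Psmd9 and 22.1 for Psmg1. Adjacent values among the 4 highest in Control differed by less than the larger of their SDs between Control libraries, so their order is not resolved.

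Estimates followed transcript length. Across the 45 genes tested, which share their libraries and are not independent, the log2 fold change had a Pearson r of −0.57 and a Spearman rho of −0.61 with log2 transcript length. Across 19684 genes with a known length the same correlations were −0.22 and −0.27. Of the 23 genes with transcripts up to 1410 bases, 20 had a log2 fold change above 0 with a median of 0.20, and of the 22 longer ones 10 did, with a median of −0.04. The core subunits had a median length of 1162.5 bases and the regulatory subunits of 1636 bases, so role and length go together in this set. With a smooth length trend over all genes removed in each library, the Spearman rho across the 45 genes was −0.35, 20 of 45 log2 fold changes lay above 0, and 2 genes had an unadjusted p under 0.05 (4.44%, against 17.1% of all genes), Psme1 at 0.63 and Psmd9 at −0.48. Psmb5 was 0.44 in that fit, with an edgeR adjusted p of 0.309, and Psmb6 was 0.17.

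**Figure D4:**
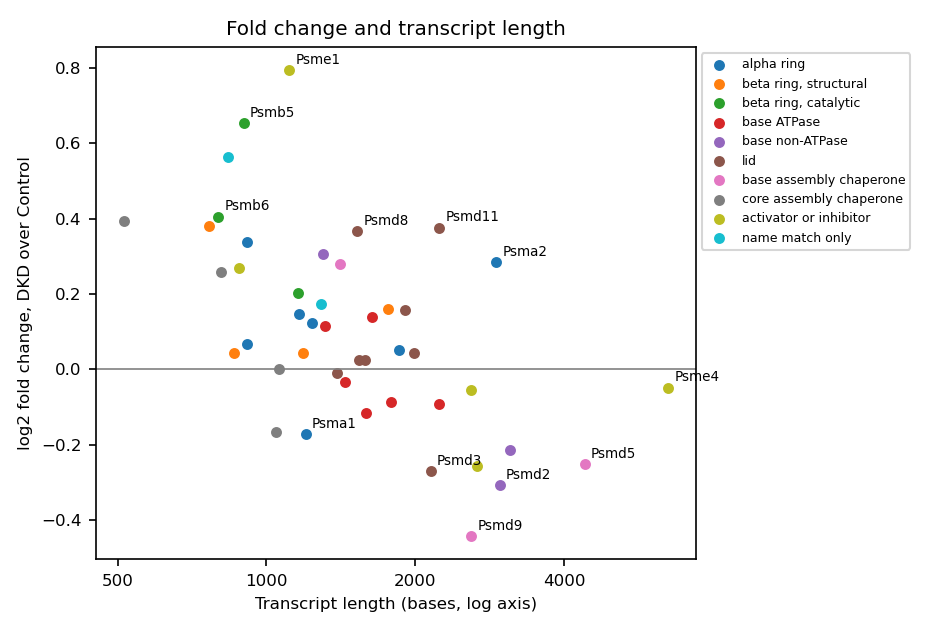
Log2 fold change (y axis, DKD over Control) against transcript length in bases (x axis, log scale) for the 45 genes tested, coloured by role, with some genes labelled. Genes up to 1410 bases lie mostly above 0, while Psmd9, Psmd2, Psmd3 and Psmd5 are longer and lie below it, and Psma2 and Psmd11 are long and lie above it.

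Other genes of the pathway were taken from lists of partners, regulators and ubiquitin genes. Of 12 partners of the proteasome in the table, 0 passed the adjusted threshold by edgeR, whereas the unadjusted p was under 0.05 for Sem1 and Uchl5, which were higher, and for Ube3c and Zfand2a, which were lower. Sem1 is a small lid subunit, Uchl5 a deubiquitinase of the base, Ube3c a ubiquitin ligase that rides on the proteasome and Zfand2a a stress-inducible proteasome-binding protein. Their log2 fold changes were 0.44, 0.59, −0.66 and −0.62 in that order, with edgeR adjusted p from 0.0881 to 0.189, and the median of the 12 was 0.14. Pomp, the chaperone that matures the core, was measured at 48.6, 40.4 and 63.9 CPM in Control and 57.6, 47.97 and 57.9 CPM in DKD (0.10 ± 0.18), and Adrm1, a ubiquitin receptor of the base, at 69.9, 76.1 and 88.7 CPM in Control and 90.03, 75.04 and 80.8 CPM in DKD (0.07 ± 0.13). Both had overlapping groups and a sign that turned with the scaling. Of 10 regulators 0 passed by edgeR, with a median of 0.03, and the unadjusted p was under 0.05 for Stat3 (0.53, higher), a cytokine-responsive transcription factor, and Sel1l (−0.51, lower), which serves degradation of proteins from the endoplasmic reticulum. Nfe2l1, whose product raises subunit genes under proteasome shortage, was measured at 197, 206 and 163 CPM in Control and 202, 236 and 208 CPM in DKD, with overlapping groups and a log2 fold change of 0.19 ± 0.14 (edgeR adjusted p 0.464). Nfe2l2, its relative in the oxidant response, had 0.19 ± 0.17 (139.6, 148 and 117 CPM in Control and 141, 135 and 186 CPM in DKD). Of the 18 ubiquitin, activation and shuttling genes 0 passed by edgeR, and 13 of 18 lay below 0 with a median of −0.13. Among them the ubiquitin-binding factors Faf1 (−0.47) and Faf2 (−0.25) were lower with an unadjusted p under 0.05. The genes of the lists named here for an unadjusted p were chosen after their values were seen. These shares, like those of the proteasome genes, are read against 22.6% of all genes at an unadjusted p under 0.05.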

How the data were processed

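Polyadenylated RNA of glomeruli was sequenced as stranded paired reads in 6 libraries, 3 Control and 3 DKD. The authors deposited 1 table of raw counts per gene. Their processing notes name fastp, HISAT2, StringTie and edgeR and the build GRCm39. Versions, annotation release and strand setting are not stated there. The values 4 and 8 occur more often than their neighbours, so the counts may have been converted from coverage. Of the gene IDs 55141 were given symbols and transcript lengths from GENCODE M21 and 260 were not. That release is of an older build, and coordinates of its gene models are not printed. The 3 promoter windows are the exception, with RefSeq coordinates in GRCm38.p6, which is also older than the build of the counts.

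Genes were kept by edgeR's filterByExpr with a minimum count of 10. After TMM scaling, edgeR 4.0.16 (R 4.3.3) fitted group alone over all 19717 genes kept, with its quasi-likelihood test, with Benjamini-Hochberg adjustment and a threshold of 0.05. The SE was taken from the log2 fold change and its F statistic. Alternatives used DESeq2 1.42.0 and limma 3.58.1 and other scalings and filters, a smooth length trend per library as offset, and each library left out in turn. Adding the counts of pseudogenes and leaving out the 2 genes matched by name only were chosen after the data were seen. The test was also run on simulated counts, but the outcome is not given here and nothing is drawn from it. The biological coefficient of variation was 33.2%. No libraries were duplicates. The members, the gene lists and the rule for named genes (the catalytic subunits, the PA28 pair, in each role the 2 genes of smallest p and the 1 of lowest log2 fold change, and listed pathway genes) were chosen with earlier results of these data known. Values of the other members are given so that each is accounted for.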

Additional observations from a re-analysis of the deposited data

How the results depend on the processing

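By edgeR 0 of the proteasome genes passed the adjusted threshold under every alternative run, and DESeq2 called 3, namely Psmb5 (adjusted p 0.0160), Psme1 (0.00382) and Psmd9 (0.00639). Over the 17 alternatives the adjusted p ranged from 0.0160 to 0.309 for Psmb5, from 0.00382 to 0.228 for Psme1 and from 0.00639 to 0.235 for Psmd9, with no change of direction. Leaving out single libraries gave 0 to 0 genes past the adjusted threshold, 3 to 13 at an unadjusted p under 0.05, 12 to 23 with groups apart and a median log2 fold change of 0.02 to 0.17. The share of members with groups apart was 51.1% without Control replicate 3 (46.2% of all genes in that fit), 45.7% without DKD replicate 2 (44.3%) and 26.1% to 33.3% without each of the other libraries (36.3% to 38.2%). By direction the first 2 were less even. Without Control replicate 3, 42.2% were higher in DKD (22.3% of all genes) and 8.89% lower (23.9%). Without DKD replicate 2, 34.8% were higher (22.1%) and 10.9% lower (22.2%). Without each of the others, 15.2% to 17.4% were higher (18.4% to 19.5%) and 10.9% to 17.8% lower (17.9% to 18.7%). With library totals 19 genes had groups apart (42.2%, against 29.3% of all genes), 6 higher and 13 lower where 7 and 4 were as reported. The median was −0.05 in that fit, against −0.13 over all genes. With the length trend removed 6 had groups apart (13.3%, against 24.9%), 2 had an unadjusted p under 0.05 and the median was −0.05. The DKD minus Control difference of the share of counts was −0.00943 percentage points as reported and 0.0174 with mitochondrially encoded genes left out of the total.

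Of 31 named genes 25 kept their direction throughout. With library totals the log2 fold change was −0.086 for Psmb4, −0.0069 for Psmb10, −0.017 for Pomp and −0.057 for Adrm1. The fit without the length trend gave −0.13 for Psmb4, −0.053 for Pomp and −0.075 for Adrm1. With single libraries left out the range was −0.0090 to 0.12 for Psmb4, −0.0043 to 0.67 for Psmb8, −0.50 to 0.12 for Psmb9, −0.092 to 0.33 for Psmb10, −0.047 to 0.29 for Pomp and −0.0093 to 0.17 for Adrm1. The cause of these turns was not tested. With the replicate number as a block 5 of 45 genes had an unadjusted p under 0.05 (11.1%, against 16.8% of all genes) and 0 an adjusted one by edgeR (0 of all genes), but the numbers did not pair the samples: same-numbered deviations correlated at −0.18, 0.07 and −0.22, and 1 of 3 DKD libraries correlated best with its own number. Sequence shared with pseudogenes limits Psma3, Psma5 and Psmb5, and sequence shared with Psme2b limits Psme2. Psma4, Psmb3, Psmc1 and Psmd2 also hold 16.8% to 29.3% of their words in common with a pseudogene.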
